A study of Mus musculus with 12 samples.

Results

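Collagens are the proteins of the extracellular matrix whose chains wind into a triple helix, and their genes are named Col followed by a type number, the letter a and a chain number. All genes of the deposited count table with such a symbol were taken, except Col17a1, which gave 43 collagen genes among 40406 entries. Of these, 27 passed the filter on low counts and were tested with the other genes, out of 15538 tested in all. Transcripts were measured by RNA sequencing in cultured 4T1 cells, a triple-negative mammary carcinoma line from BALB/c mice. Cells labelled knockout or wild type for integrin β3, the product of Itgb3, received 10 nM docetaxel, a taxane that stabilises microtubules, or its solvent DMSO for 24 h. They were then kept for 48 h without drug and harvested. The 12 libraries formed 4 groups of 3 biological replicates. These were knockout-labelled cells after docetaxel (KO-DTX), knockout-labelled cells after DMSO (KO-DMSO), wild-type cells after docetaxel (WT-DTX) and wild-type cells after DMSO (WT-DMSO). All groups grew in serum-containing medium on wells coated with poly-L-lysine, a synthetic polymer. The labels do not say how the knockout was made or whether it is 1 clone.

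A collagen chain is translated into the endoplasmic reticulum, where prolines and lysines are hydroxylated and sugars added before chains fold into the triple helix. Procollagen then leaves in enlarged COPII carriers, loses its end peptides where the type has them, and is crosslinked outside the cell. Fibrillar types build the banded fibrils of stroma, type IV builds the network of the basement membrane under epithelia, and the other classes anchor, coat or link these structures. In mammary tumours most fibrillar collagen is made by stromal fibroblasts, while epithelial cells are known for type IV chains. The cultures held 1 labelled cell type, so the values here describe the tumour cell line's own transcripts.

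The libraries held 28.7 to 40.8 mega-counts. Between 21031 and 22648 genes were detected in docetaxel libraries, against 19840 to 20606 in DMSO libraries. Itgb3 itself averaged 62.4 ± 2.77 CPM (counts per mega-count of the library) in KO-DTX, 64.7 ± 2.14 in KO-DMSO, 83.1 ± 4.88 in WT-DTX and 65.9 ± 5.67 in WT-DMSO libraries (SD, n = 3 each). By edgeR's quasi-likelihood test it was lower in knockout-labelled cells after docetaxel (log2 fold change −0.41 ± 0.0828 SE, adjusted p = 0.00765) and not under DMSO (−0.03 ± 0.0831, adjusted p = 0.874). Counts per gene do not show whether the transcripts of the knockout-labelled cells are intact, so the genotype rests on the labels. The description of WT-DMSO replicate 1 calls it a knockout, against its own title and genotype entry. Without that library, the collagen genes called numbered 6 for docetaxel in wild-type cells and 8 for genotype under DMSO, as against 6 and 7 with it, and each changed call is given with its gene. All 6 epithelial markers were at or above 1 CPM in every group. Of the 7 fibroblast markers, Lum had no count and Dcn, Pdgfrb and Thy1 failed the filter, while Pdgfra, Postn and Fap were present. The list summed to 15.2 to 19.0 CPM in KO-DMSO and 27.8 to 30.5 CPM in WT-DMSO libraries. The transcript Gm23935 held 0.293 to 1.51% of counts in KO-DTX and 0.435 to 3.98% in WT-DMSO libraries, against 0.137 to 0.22% in the others.

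Collagen transcripts made up a narrow set. A count was seen in some library for 42 of the 43 genes, in every library for 23, and a mean of at least 1 CPM was reached by 16. Only 8 reached 10 CPM, and the lowest of these, Col7a1, averaged 67.5 CPM, while the next gene down, Col12a1, averaged 4.31 CPM. The 8 were Col4a1, Col4a2 and Col4a5 of the basement membrane, Col8a1 of the short-chain networks, Col18a1 of the multiplexins, Col16a1 of the fibril-associated class, Col5a1 of the fibrillar class and Col7a1, the anchoring fibril collagen. The genes for the major stromal collagens lay at the floor. Col1a1, the main chain of type I, averaged 0.73 to 1.55 CPM in KO-DTX and KO-DMSO and 0.678 to 1.12 CPM in WT-DTX and WT-DMSO libraries, while its partner chain Col1a2 had 22 counts over the 12 libraries and Col3a1 had 2.

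By class, 7 of 11 fibrillar genes were tested, 5 of 6 of the basement membrane, 2 of 6 of the beaded filaments, all 3 short-chain genes, 5 of 9 fibril-associated genes, both multiplexins and 1 of 3 transmembrane collagens. The 16 genes that were not tested had 280 counts together. Summed over the 3 libraries of a group, Col5a3, a minor fibrillar chain, had 23 counts in KO-DTX and 1 in KO-DMSO, and 12 in WT-DTX and 7 in WT-DMSO. Col4a3, a type IV chain of the kidney filter, had 7 counts in KO-DTX and 3 in KO-DMSO, and 22 in WT-DTX and 3 in WT-DMSO. Col9a2, a partner chain of Col9a3, had 12 counts in KO-DTX and 3 in KO-DMSO, and 12 in WT-DTX and 1 in WT-DMSO. The 7 counts of Col4a3 in KO-DTX were all from replicate 1. Col6a5 had 14 counts in KO-DTX and 6 in KO-DMSO, and 14 in WT-DTX and 5 in WT-DMSO. Col19a1 had 10 counts in KO-DTX and 4 in KO-DMSO, and 3 in WT-DTX and 1 in WT-DMSO. Col6a3, the long chain of type VI, had 1 count in KO-DTX and 5 in KO-DMSO, and 14 in WT-DTX and 6 in WT-DMSO. Col1a2 had 1 count in KO-DTX and 3 in KO-DMSO, and 12 in WT-DTX and 6 in WT-DMSO, and the 6 counts of Col6a3 in WT-DMSO were all from replicate 3. Col6a6 had 7 counts in KO-DTX and 2 in KO-DMSO, and 5 in WT-DTX and 6 in WT-DMSO, and Col13a1 had 5 in KO-DTX and 3 in KO-DMSO, and 5 in WT-DTX and 3 in WT-DMSO. The remaining 7, namely Col6a4, Col22a1, Col5a2, Col9a1, Col25a1, Col3a1 and Col28a1, had at most 8 counts each in all, and Col28a1 had none. A gene could pass the filter through 1 group alone, so counts over the 27 describe only the genes that passed.

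**Figure D1:**
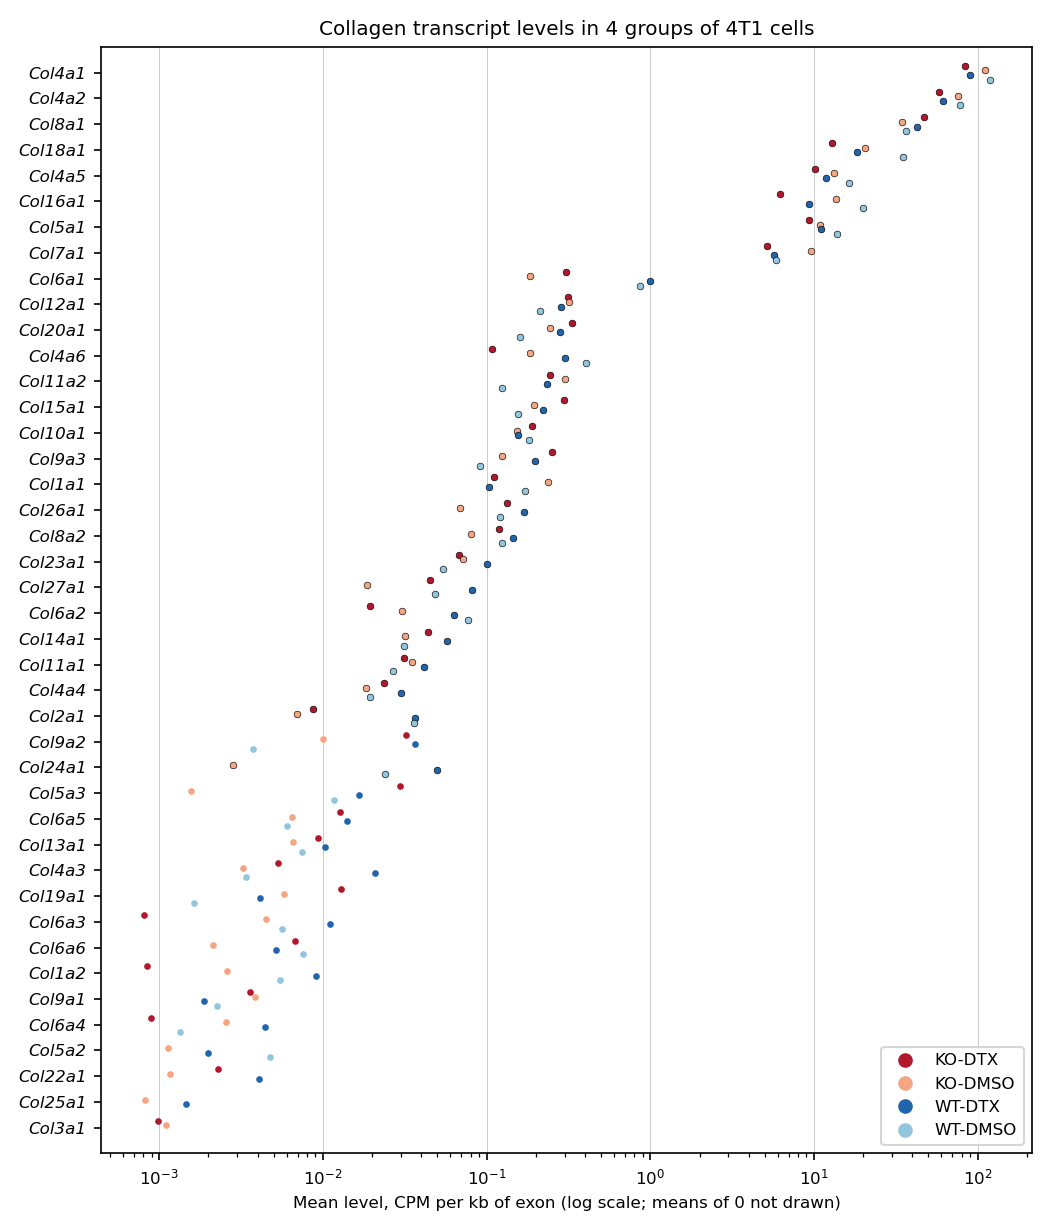
Mean level of each collagen gene in the 4 groups, as CPM per kilobase of exon on a log axis, with genes in order of their mean over 12 libraries; outlined points are tested genes, and group means of 0 and Col28a1, which had no count, are not drawn. The 8 abundant genes, Col4a1 to Col7a1, sit above 4 CPM per kilobase in every group, and Col6a1, the next, averaged 0.589.

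Per kilobase of exon, Col4a1 was the most abundant, at 101 CPM per kilobase over the 12 libraries, followed by its partner Col4a2 at 68.4, Col8a1 at 40.1 and Col18a1 at 21.6. Col4a5 averaged 12.9, Col16a1 12.3, Col5a1 11.2 and Col7a1 6.56 CPM per kilobase. Over all 12 libraries the ranges of each pair of neighbours among these 8 overlapped, and those of Col7a1 and the next gene, Col6a1, did not. Within each group Col4a1, Col4a2 and Col8a1 held the first 3 places in that order, though the ranges of Col4a2 and Col8a1 overlapped in KO-DTX libraries. In WT-DMSO libraries Col8a1 at 36.7 ± 2.42 and Col18a1 at 34.8 ± 6.80 CPM per kilobase overlapped (SD, n = 3 each). Col16a1 was at place 7 in both docetaxel groups and at place 5 in both DMSO groups. Col4a1 and Col4a2 encode the chains of the common type IV network and lie head to head on chromosome 8, with starts 21 bases apart (GRCm38, GENCODE M21 annotation, as for all positions here). Col4a1 occupies chr8:11198423-11312826 on the minus strand and Col4a2 chr8:11312805-11449287 on the plus strand. The ratio of Col4a1 to Col4a2 per kilobase stayed between 1.34 and 1.64 in all 12 libraries. The other 35 collagen genes together held 1.09% of the collagen sum per kilobase.

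The promoters of Col8a1, Col16a1 and Col7a1 are shown because these abundant genes, each the only or leading member of its class, differed in direction after docetaxel in knockout-labelled cells. The 250 bases before each gene's start are from RefSeq on GRCm38.p6, read 5′ to 3′ on the gene's strand. The window of Col8a1 lies at chr16:57754738-57754987 (minus strand), that of Col16a1 at chr4:130047590-130047839 (plus strand) and that of Col7a1 at chr9:108953336-108953585 (plus strand). Capitals mark GGGCGG, the core of the GC box, and CCAAT, each on either strand.
Col8a1: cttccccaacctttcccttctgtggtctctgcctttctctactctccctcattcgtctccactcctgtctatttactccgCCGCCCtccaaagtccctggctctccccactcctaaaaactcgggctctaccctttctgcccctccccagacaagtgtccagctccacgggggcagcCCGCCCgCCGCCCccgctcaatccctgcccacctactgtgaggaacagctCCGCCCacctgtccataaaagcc
Col16a1: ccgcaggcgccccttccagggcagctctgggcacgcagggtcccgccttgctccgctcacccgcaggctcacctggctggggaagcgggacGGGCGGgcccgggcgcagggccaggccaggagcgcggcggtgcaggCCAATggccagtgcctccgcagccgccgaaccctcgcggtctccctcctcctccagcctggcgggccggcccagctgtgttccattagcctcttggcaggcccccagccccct
Col7a1: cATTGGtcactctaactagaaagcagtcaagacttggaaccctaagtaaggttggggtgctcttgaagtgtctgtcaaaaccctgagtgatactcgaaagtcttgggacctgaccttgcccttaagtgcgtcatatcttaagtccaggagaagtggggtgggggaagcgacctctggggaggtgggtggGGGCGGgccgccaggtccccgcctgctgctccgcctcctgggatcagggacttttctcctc
Col8a1 held 4 GC box cores, all on the strand opposite to the gene, at 170, 73, 66 and 23 bases before the start. Col16a1 held a GC box core at 159 and a CCAAT box at 113 bases before the start, in a window that also holds an exon of Gm12963. Col7a1 held a GC box core at 61 and a CCAAT box, on the opposite strand, at 249 bases before the start. Windows were found for 34 of the 43 collagen genes, 37 in all. The GC box core was in 22 of the 37 and in 32.7% of the 32851 windows of all genes, and the CCAAT box was in 12 of the 37 and in 33.8% of all windows. Both strands were searched, and a match describes letters only.

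After docetaxel, Col4a1, Col16a1 and Col18a1 were lower in both genotypes, and Col8a1 was higher in knockout-labelled cells. In knockout-labelled cells 6 of the 27 tested genes passed the test, where 16.1% of all tested genes passed. Of the 6, 1 was higher, where 9.09% of all genes were, and 5 were lower, where 7% were. In wild-type cells 6 passed, where 28.4% of all tested genes passed. Of these, 2 were higher, where 14.5% of all genes were, and 4 were lower, where 13.8% were. The 3 genes that fell in both genotypes, in contrasts that share no library, compare with 5.14% of all tested genes. The share of collagens called was near that of all genes in each genotype. Of the 8 abundant genes, 4 fell and 1 rose in knockout-labelled cells, where 849 of all 9035 tested genes of at least 10 CPM fell and 934 rose. In wild-type cells 4 of the 8 fell and none rose, where 1684 of the 9035 fell and 1592 rose. The median log2 fold change of these 8 was −0.40 in knockout-labelled and −0.37 in wild-type cells, and that of all tested genes of at least 10 CPM was −0.00 in knockout-labelled and −0.01 in wild-type cells. For the 19 tested genes under 10 CPM the median was 0.35 in knockout-labelled and 0.50 in wild-type cells, and for all such genes 0.02 and 0.08. Low genes such as Col24a1 can pass the filter through the group where they are high. The medians under 10 CPM therefore describe only the genes that passed. The docetaxel and DMSO libraries were fully apart for 15 of the 27 genes in knockout-labelled cells, where 37.7% of all genes did not overlap, and for 8 in wild-type cells, where 40.5% did not.

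**Figure D2:**
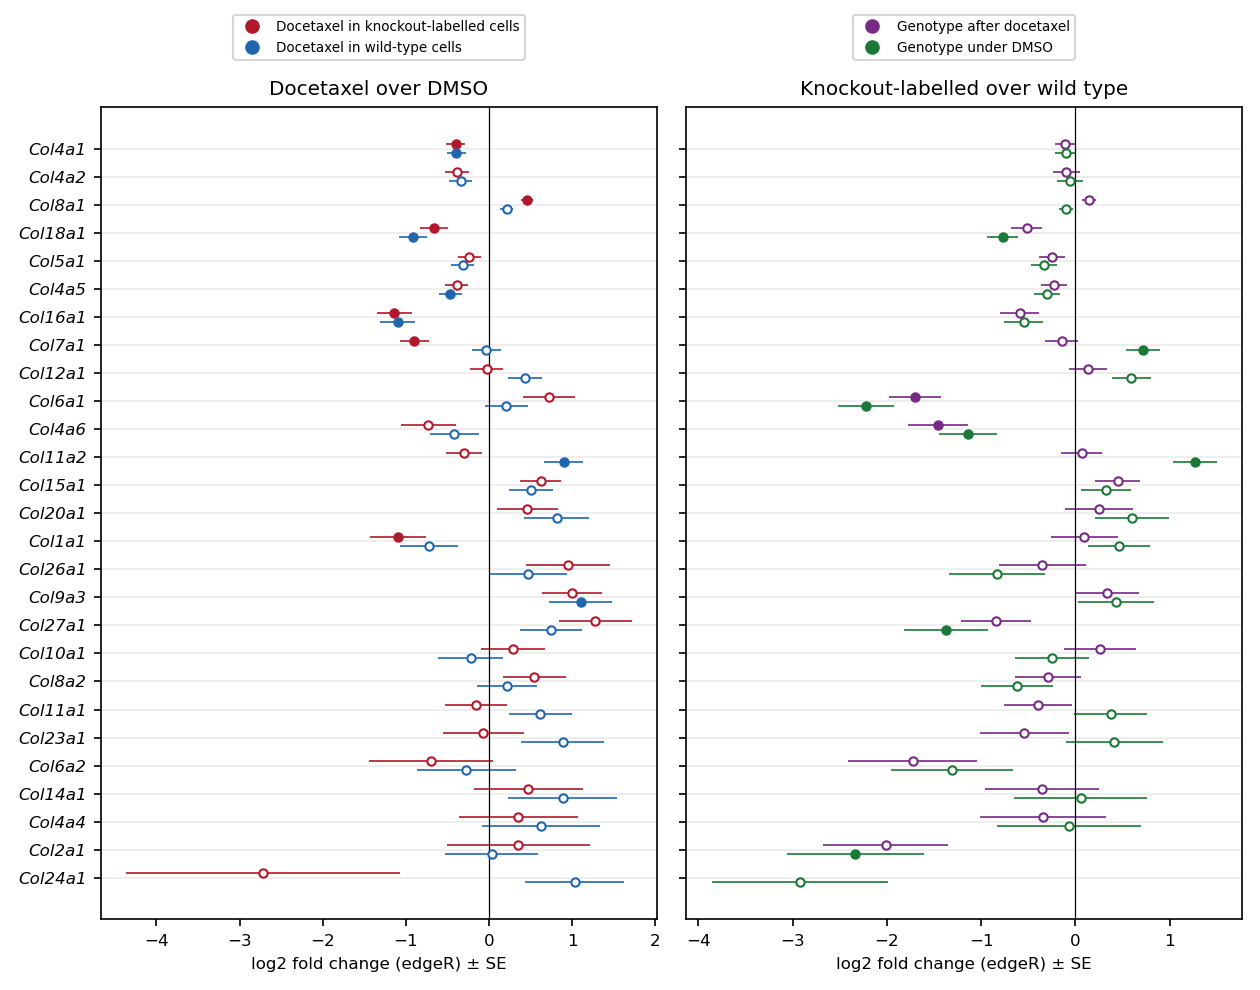
Log2 fold change with its SE from edgeR for the 27 tested collagen genes, in order of mean CPM; filled points passed the test at an adjusted p of 0.05 and open points did not. The left panel shows docetaxel over DMSO and the right panel knockout-labelled over wild-type cells; Col24a1 after docetaxel, with no count in KO-DTX libraries, lies outside the right axis and is not drawn. Col16a1 and Col18a1 are low in both docetaxel contrasts, and Col6a1 and Col4a6 in both genotype contrasts.

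Of the basement membrane genes, Col4a1 was at 551, 691 and 631 CPM in KO-DTX libraries, against 808, 856 and 813 CPM in KO-DMSO libraries. It was at 610.2, 734 and 676 CPM in WT-DTX libraries, against 831, 801 and 1022 CPM in WT-DMSO libraries. All docetaxel libraries lay below all DMSO libraries of their genotype, and WT-DMSO replicate 3 was the highest. The log2 fold change was −0.40 ± 0.112 SE in knockout-labelled cells (edgeR adjusted p = 0.0254) and −0.39 ± 0.112 in wild-type cells (adjusted p = 0.0178). Both calls were lost when some single libraries were left out, at log2 fold changes of −0.42 to −0.32 in knockout-labelled and −0.40 to −0.28 in wild-type cells. In knockout-labelled cells the adjusted p was 0.0985 without KO-DTX replicate 1, 0.0729 without KO-DTX replicate 3, and 0.052, 0.0921 and 0.0639 without KO-DMSO replicates 1, 2 and 3. In wild-type cells it was 0.0806 and 0.053 without WT-DTX replicates 1 and 3 and 0.0757 without WT-DMSO replicate 3.

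Col4a2 followed the same order of libraries without passing the test, at 309, 457 and 383 CPM in KO-DTX, against 494, 506 and 498 CPM in KO-DMSO libraries. In wild-type cells it was at 369, 442 and 417 CPM in WT-DTX, against 504, 433 and 620.4 CPM in WT-DMSO libraries, which overlap. The log2 fold changes were −0.38 ± 0.142 SE (edgeR adjusted p = 0.0809) and −0.34 ± 0.142 (adjusted p = 0.0859). Col4a5 encodes a chain of the second type IV network and lies on the X chromosome beside Col4a6, its usual partner there. Col4a5 was at 75.4, 63.1 and 66.2 CPM in KO-DTX, against 78.8, 97.1 and 92.5 CPM in KO-DMSO libraries. It was at 76.8, 85.3 and 77.5 CPM in WT-DTX, against 84.4, 130.1 and 116 CPM in WT-DMSO libraries. The highest WT-DTX library lay above the lowest WT-DMSO library, so these groups overlap. Col4a5 fell in wild-type cells (log2 fold change −0.46 ± 0.135 SE, edgeR adjusted p = 0.0199) and was at −0.39 ± 0.135 in knockout-labelled cells (adjusted p = 0.0645). The knockout-labelled value passed with DESeq2 (adjusted p = 0.0442), without a filter (0.00469) and in a fit to only the groups compared (0.0261). The wild-type call was lost without WT-DTX replicate 1 or 3 (0.0682 and 0.0663) and without WT-DMSO replicate 2 or 3 (0.0875 and 0.059). Without WT-DMSO replicate 1 it held, at −0.63 with an adjusted p of 0.00095.

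Col18a1 encodes type XVIII collagen, a multiplexin of basement membranes that carries heparan sulphate and whose end fragment is endostatin. It was at 68.7, 105 and 97.1 CPM in KO-DTX libraries, against 136, 152 and 141 CPM in KO-DMSO libraries. It was at 105, 151 and 133 CPM in WT-DTX libraries, against 217, 217 and 299.5 CPM in WT-DMSO libraries. Every docetaxel library lay below every DMSO library of its genotype, and the DMSO wild-type libraries were the highest of all 12. Docetaxel lowered it by a log2 fold change of −0.66 ± 0.168 SE in knockout-labelled cells (edgeR adjusted p = 0.0161) and −0.92 ± 0.168 in wild-type cells (adjusted p = 0.00143). The knockout-labelled call was lost without KO-DTX replicate 1 (adjusted p = 0.0604) and without KO-DMSO replicate 2 (0.0662). The genotypes also differed under DMSO, by −0.77 ± 0.168 (adjusted p = 0.00673), and after docetaxel the difference was −0.52 ± 0.168 (adjusted p = 0.0946). The genotype difference after docetaxel passed with DESeq2, the replicate block, the GC correction or no filter.

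Col16a1, a fibril-associated collagen that binds integrins and sits at the surface of fibrils and cells, had the largest docetaxel decrease among the 8 abundant genes. It was at 31.0, 53.5 and 41.2 CPM in KO-DTX libraries, against 85.7, 102 and 88.8 CPM in KO-DMSO libraries. It was at 50.5, 76.9 and 61.4 CPM in WT-DTX libraries, against 119, 110.3 and 176 CPM in WT-DMSO libraries. The groups of each genotype were far apart, and the lowest library of all was KO-DTX replicate 1. The log2 fold change was −1.14 ± 0.207 SE in knockout-labelled cells (edgeR adjusted p = 0.00212) and −1.10 ± 0.206 in wild-type cells (adjusted p = 0.00163), and both calls held under every alternative run. Knockout-labelled over wild-type values were −0.55 ± 0.204 under DMSO (adjusted p = 0.0834) and −0.59 ± 0.206 after docetaxel (adjusted p = 0.125). They passed with the GC correction in both treatments (−0.63, adjusted p = 0.00583, under DMSO and −0.57, adjusted p = 0.0201, after docetaxel), and the value after docetaxel also without KO-DTX replicate 2 (−0.80, adjusted p = 0.0436).

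Col8a1, which encodes a chain of the hexagonal type VIII network found under endothelium and in remodelling tissue, moved the other way. It was at 386, 346 and 372 CPM in KO-DTX libraries, against 267, 269.9 and 269 CPM in KO-DMSO libraries. It was at 326, 346 and 325 CPM in WT-DTX libraries, against 305, 289 and 268 CPM in WT-DMSO libraries. Docetaxel libraries were above DMSO libraries in both genotypes without overlap. It rose in knockout-labelled cells by 0.45 ± 0.0761 SE on the log2 scale (edgeR adjusted p = 0.00116), and this call held under every alternative run. In wild-type cells the value was 0.21 ± 0.076 (adjusted p = 0.0516), and it passed with DESeq2, with the GC correction, with at least 1 CPM in 3 libraries and without WT-DMSO replicate 1 (0.26, adjusted p = 0.0264). The difference between the genotypes in the docetaxel effect was 0.24 ± 0.107 and did not pass (interaction adjusted p = 0.430).

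Col7a1 forms the anchoring fibrils that tie epithelial basement membranes to the stroma below. It was at 41.7, 64.4 and 52.7 CPM in KO-DTX libraries, against 98.0, 103 and 94.7 CPM in KO-DMSO libraries. It was at 61.6, 56.8 and 57.3 CPM in WT-DTX libraries, against 73.3, 41.2 and 65.3 CPM in WT-DMSO libraries. The KO-DMSO libraries stood above the other 9, which overlapped. Col7a1 fell after docetaxel in knockout-labelled cells (log2 fold change −0.90 ± 0.178 SE, edgeR adjusted p = 0.00373, held under every alternative run) and was at −0.03 ± 0.177 in wild-type cells (adjusted p = 0.910). Under DMSO it was higher in knockout-labelled than in wild-type cells by 0.72 ± 0.177 (adjusted p = 0.0139), and this was 0.51 with an adjusted p of 0.0554 without WT-DMSO replicate 2 and KO-DTX replicate 3, each the richest of its group in Gm23935. After docetaxel the genotypes were at −0.15 ± 0.177 (adjusted p = 0.748). The test of the difference in docetaxel effect gave −0.86 ± 0.250 (interaction adjusted p = 0.272), and −1.03 with an adjusted p of 0.0443 without WT-DMSO replicate 1, the library whose labels disagree.

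**Figure D3:**
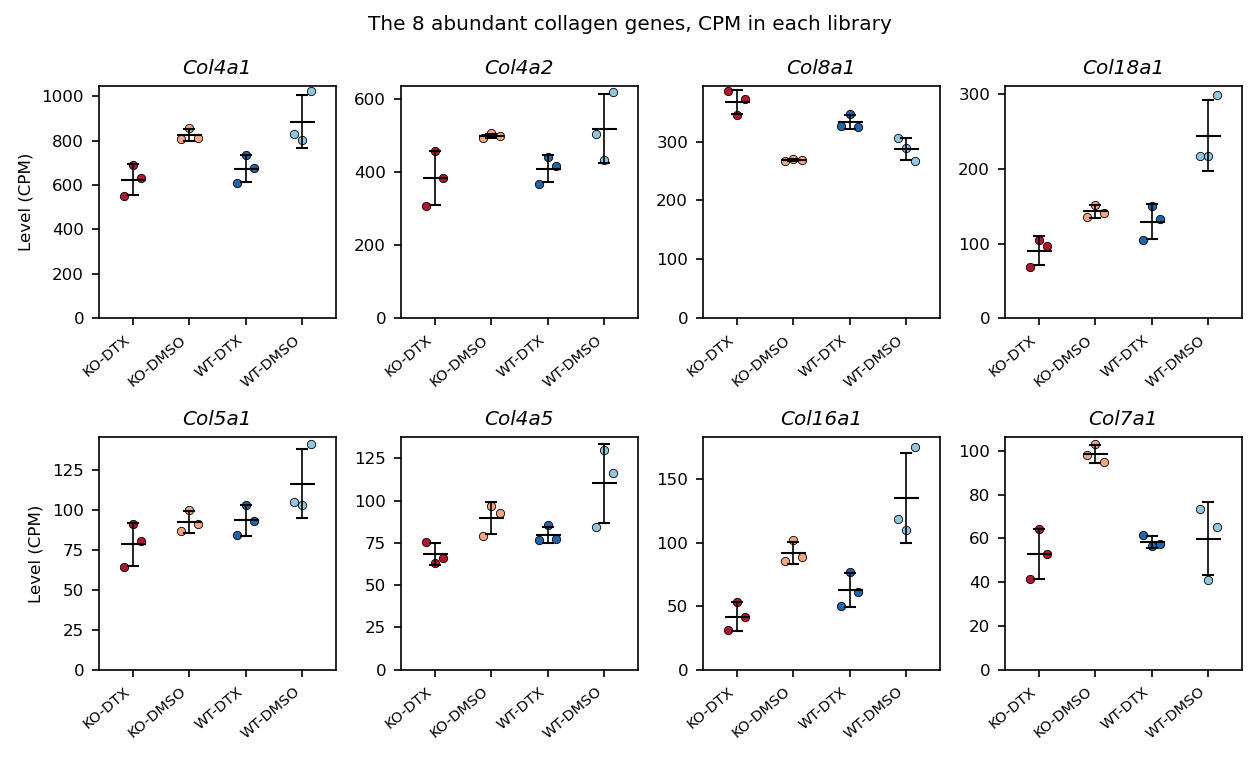
Levels of the 8 abundant collagen genes in CPM in each library (points) by group, with the mean and SD of 3 libraries (bars); axes start at 0 and differ between genes. Col16a1 and Col18a1 are lower in docetaxel than in DMSO libraries of both genotypes, Col8a1 is higher, and Col7a1 stands at 94.7 to 103 CPM in KO-DMSO libraries alone.

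Among fibrillar genes Col5a1, a chain that sits inside type I fibrils and sets their diameter, was the only abundant one. It was at 64.3, 91.2 and 80.8 CPM in KO-DTX libraries, against 86.8, 100.4 and 91.1 CPM in KO-DMSO libraries. It was at 84.3, 103 and 93.3 CPM in WT-DTX libraries, against 105, 103 and 142 CPM in WT-DMSO libraries. The groups of wild-type cells nearly met, and those of knockout-labelled cells overlapped. In the main edgeR fit it passed no test, with log2 fold changes for docetaxel of −0.24 ± 0.140 SE (edgeR adjusted p = 0.277) in knockout-labelled and −0.32 ± 0.140 (adjusted p = 0.104) in wild-type cells. Col1a1 was at 0.639, 0.576 and 0.975 CPM in KO-DTX libraries, against 1.28, 1.99 and 1.38 CPM in KO-DMSO libraries. In wild-type cells it was at 0.960, 0.506 and 0.569 CPM in WT-DTX, against 1.43, 1.10 and 0.844 CPM in WT-DMSO libraries, which overlap. It fell in knockout-labelled cells (−1.09 ± 0.337 SE, edgeR adjusted p = 0.0405) but the call was lost without KO-DTX replicate 1 or 2 (adjusted p = 0.131 and 0.106) and without KO-DMSO replicate 1, 2 or 3 (0.0546, 0.179 and 0.0765). It was also lost with the replicate block (0.0539), the GC correction (0.0717) and both (0.0825).

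Col11a2, a minor fibrillar chain of cartilage collagen, was at 1.92, 1.47 and 1.64 CPM in KO-DTX libraries, against 1.79, 2.18 and 2.23 CPM in KO-DMSO libraries. It was at 1.72, 1.43 and 1.65 CPM in WT-DTX libraries, against 0.695, 0.963 and 0.912 CPM in WT-DMSO libraries. The WT-DMSO libraries were low and the other 9 were above 1.4 CPM. Col11a2 rose after docetaxel in wild-type cells (0.90 ± 0.235 SE, edgeR adjusted p = 0.0115) and was higher in knockout-labelled cells under DMSO (1.27 ± 0.233, adjusted p = 0.00232), and both calls, which share the WT-DMSO libraries, held under every alternative run. In knockout-labelled cells docetaxel gave −0.30 ± 0.215 (adjusted p = 0.376), and the interaction of −1.20 ± 0.319 did not pass (adjusted p = 0.211). Col9a3, a chain of the fibril-associated type IX of cartilage, was at 0.913, 1.15 and 0.818 CPM in KO-DTX, against 0.639, 0.358 and 0.441 CPM in KO-DMSO libraries. It was at 0.791, 0.730 and 0.768 CPM in WT-DTX, against 0.174, 0.413 and 0.473 CPM in WT-DMSO libraries. Docetaxel libraries were above DMSO libraries in both genotypes without overlap. Its rise passed in wild-type cells (1.10 ± 0.382, adjusted p = 0.0447) and not in knockout-labelled cells (1.00 ± 0.358, adjusted p = 0.0731). The knockout-labelled value passed with the GC correction (1.12, adjusted p = 0.0363). The wild-type call was lost without any 1 of WT-DTX replicates 1, 2 and 3 (0.105, 0.0807 and 0.0985) or WT-DMSO replicates 1 and 2 (0.134 and 0.0688). It was also lost with the replicate block (0.0623), without a filter (0.0867) and in a fit to only the groups compared (0.0836). Exons of Col9a3 overlap 234 bases of Tcfl5 on the other strand, 6.07% of its exon length, and the strand setting of the counting is unknown.

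Beside these changes, marker genes also moved with docetaxel. The 6 epithelial markers summed to 2776 to 3817 CPM in KO-DTX and 3965 to 4178 CPM in KO-DMSO libraries, and to 2809 to 3504 CPM in WT-DTX and 3095 to 4153 CPM in WT-DMSO libraries. Of these, the keratin Krt19 fell (−0.80 ± 0.171 SE in knockout-labelled cells, edgeR adjusted p = 0.00607, and −0.97 ± 0.172 in wild-type cells, adjusted p = 0.00121). The keratin Krt18 fell too (−0.49 ± 0.150 in knockout-labelled cells, edgeR adjusted p = 0.0389, and −0.50 ± 0.150 in wild-type cells, adjusted p = 0.0226). The summed macrophage markers were at 55.2 to 63.7 CPM in KO-DTX and 30.6 to 40.3 CPM in KO-DMSO libraries, and at 52.7 to 63.5 CPM in WT-DTX and 33.2 to 51.3 CPM in WT-DMSO libraries. Cd14 averaged 34.2 CPM in KO-DTX and 17.2 in KO-DMSO, and 33.4 in WT-DTX and 16.6 in WT-DMSO libraries. Of the list, 3 of 5 genes, Cd14, Cd68 and Csf1r, were at 1 CPM or more in every group. The other genes, Adgre1 and Lyz2, were at or near 0 in every group. The 7 fibroblast markers summed to 17.8 to 20.4 CPM in KO-DTX and 15.2 to 19.0 CPM in KO-DMSO libraries, and to 23.9 to 25.1 CPM in WT-DTX and 27.8 to 30.5 CPM in WT-DMSO libraries. Of these, Postn, a matrix protein of fibroblasts, averaged 5.95 ± 0.495 CPM in KO-DTX and 1.93 ± 0.455 in KO-DMSO, and 4.20 ± 0.706 in WT-DTX and 0.594 ± 0.239 in WT-DMSO libraries (SD, n = 3 each). Fap, a surface protease, averaged 0.843 ± 0.186 CPM in KO-DTX and 0.196 ± 0.0575 in KO-DMSO, and 1.02 ± 0.0958 in WT-DTX and 0.264 ± 0.113 in WT-DMSO libraries. The receptor Pdgfra fell in wild-type cells (−0.56 ± 0.106 SE, edgeR adjusted p = 0.00173), at 19.3 ± 0.544 CPM in WT-DTX and 28.4 ± 1.41 CPM in WT-DMSO libraries. The part of such markers in the collagen values was not tested. In bulk RNA a change in the share of cells and a change in RNA per cell cannot be told apart.

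Col6a1, a chain of type VI collagen, and Col4a6, a chain of the second type IV network, were lower in knockout-labelled than in wild-type cells under both treatments. The DMSO and docetaxel comparisons of genotypes share no library, but each shares its libraries with the comparisons of treatment. Under DMSO 7 of the 27 genes passed the test, where 15.8% of all tested genes passed. Of the 7, 2 were higher in knockout-labelled cells, where 6.6% of all genes were, and 5 were lower, where 9.2% were. After docetaxel 3 passed, where 5.89% of all tested genes passed. All 3 were lower in knockout-labelled cells, where 3.39% of all genes were, and none was higher, where 2.5% of all genes were. Col24a1, among the 3 after docetaxel, and Col2a1, among the 7 under DMSO, reached the filter's 0.306 CPM in 4 wild-type libraries each and in 0 knockout-labelled libraries. They passed the filter only through the group where they are high and had to differ, so their calls are a description and lend no weight to the counts. Of the 8 abundant genes, Col7a1 was higher and Col18a1 lower under DMSO, and none passed after docetaxel. Among all tested genes of at least 10 CPM, 7.94% were higher and 11.6% lower under DMSO. After docetaxel 2.38% of these were higher and 3.81% lower. The median log2 fold change over the 27 was −0.10 under DMSO and −0.29 after docetaxel, and over all tested genes it was 0.01 in both. Libraries of the genotypes were fully apart for 13 genes under DMSO, where 32.6% of all genes did not overlap, and for 8 after docetaxel, where 25.1% did not. Col24a1, Col2a1 and Col4a4 reached the filter in 0 knockout-labelled libraries and Col6a2 in 1, and all stay in these medians and counts. They passed through wild-type libraries, so the medians and counts over the 27 are a description and do not show a shift of the set.

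Col6a1 encodes a chain of type VI collagen, the beaded filaments that surround many cells, and was the collagen with the firmest genotype difference. It was at 1.46, 1.44 and 1.10 CPM in KO-DTX libraries, against 4.09, 4.66 and 4.38 CPM in WT-DTX libraries. It was at 0.831, 0.586 and 0.999 CPM in KO-DMSO libraries, against 2.43, 3.44 and 5.50 CPM in WT-DMSO libraries. All 6 knockout-labelled libraries lay below all 6 wild-type libraries. The log2 fold change was −1.71 ± 0.275 SE after docetaxel (edgeR adjusted p = 0.00187) and −2.23 ± 0.298 under DMSO (adjusted p = 0.000223), and both calls held under every alternative run. Its partner Col6a2, which lies on the same strand of chromosome 10 with a gap of 85161 bases, had an average of 0.162 ± 0.0817 CPM in KO-DTX and 0.528 ± 0.159 in WT-DTX, and 0.253 ± 0.237 in KO-DMSO and 0.640 ± 0.0438 in WT-DMSO libraries (SD, n = 3 each). The genotypes did not overlap, and the values of −1.72 ± 0.684 after docetaxel (edgeR adjusted p = 0.186) and −1.31 ± 0.648 under DMSO (adjusted p = 0.197) did not pass. Col6a2 reached the filter's 0.306 CPM in 6 wild-type libraries and in 1 knockout-labelled library. It passed the filter only through the groups where it is high, so its lack of overlap lends no weight to that of Col6a1. Col6a3, the chain that completes the usual type VI molecule, failed the filter.

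Col4a6 was at 1.12, 1.04 and 0.440 CPM in KO-DTX libraries, against 2.29, 2.25 and 2.70 CPM in WT-DTX libraries. It was at 1.21, 1.89 and 1.29 CPM in KO-DMSO libraries, against 2.40, 4.23 and 3.04 CPM in WT-DMSO libraries. No knockout-labelled library reached the lowest wild-type library. The log2 fold change was −1.45 ± 0.319 SE after docetaxel (edgeR adjusted p = 0.0135) and −1.14 ± 0.307 under DMSO (adjusted p = 0.0221). The call after docetaxel was lost without WT-DTX replicate 3 (adjusted p = 0.0656) or KO-DTX replicate 3 (0.0532), and that under DMSO without WT-DMSO replicate 2 (0.105) or KO-DMSO replicate 1 or 3 (0.099 and 0.085). Col4a5, whose start lies 1309 bases from that of Col4a6 on the opposite strand, passed in neither, with −0.23 ± 0.135 after docetaxel (adjusted p = 0.425) and −0.30 ± 0.135 under DMSO (adjusted p = 0.151). The ratio of Col4a5 to Col4a6 per kilobase was 72.3 to 178 in KO-DTX and 34.0 to 45.1 in WT-DTX, and 61.0 to 85.0 in KO-DMSO and 36.5 to 45.4 in WT-DMSO libraries. Without WT-DMSO replicate 1, Col4a5 also passed under DMSO (−0.46, adjusted p = 0.00873).

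The other genotype calls were of genes near the floor. Col24a1, a fibrillar chain, had no count in any KO-DTX library, against 12, 12 and 16 counts in WT-DTX libraries. Its level was thus at least 13.9-fold lower in knockout-labelled cells after docetaxel, with a floor of 3 counts over the group (edgeR adjusted p = 0.00398, held under every alternative run that kept the gene). Col24a1 passed the filter only through wild-type libraries, so this call is a description. Under DMSO it had 1, 1 and 0 counts in KO-DMSO libraries, against 2, 10 and 4 in WT-DMSO libraries, a ratio of 0.114 with an exact 95% counting interval of 0.0127 to 0.484 and an adjusted p of 0.054. This value passed without WT-DMSO replicate 1 (adjusted p = 0.0268) and with the GC correction (0.0443). Col2a1, the main chain of cartilage fibrils, had 9 counts in KO-DTX and 36 in WT-DTX libraries, and 6 in KO-DMSO and 29 in WT-DMSO libraries. It passed under DMSO (−2.34 ± 0.727 SE, edgeR adjusted p = 0.0431) and not after docetaxel (−2.01 ± 0.662, adjusted p = 0.101). Without WT-DMSO replicate 1 or 2 its adjusted p under DMSO was 0.0589 and 0.166, without KO-DMSO replicate 1 or 3 it was 0.153 each, and without a filter it was 0.0585.

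Col27a1, a fibrillar collagen of cartilage, was at 0.617, 0.633 and 0.503 CPM in KO-DTX libraries, against 0.791, 1.26 and 1.11 CPM in WT-DTX libraries. It was at 0.416, 0.130 and 0.176 CPM in KO-DMSO libraries, against 0.521, 0.516 and 0.844 CPM in WT-DMSO libraries. The genotypes did not overlap in either treatment. It passed under DMSO (−1.37 ± 0.443 SE, edgeR adjusted p = 0.0496) and not after docetaxel (−0.84 ± 0.372, adjusted p = 0.242). The call was lost without WT-DMSO replicate 2 or 3 (0.0734 and 0.164) or KO-DMSO replicate 2 or 3 (0.160 and 0.159). It was also lost with the replicate block (0.0718), without a filter (0.0556) and in a fit to only the groups compared (0.109). In knockout-labelled cells Col27a1 was higher after docetaxel without overlap, but did not pass (1.27 ± 0.438, adjusted p = 0.0620). That value passed with DESeq2 (0.0386), the GC correction (0.0286), block and GC correction (0.0405) and without KO-DMSO replicate 1 (0.0222). In wild-type cells docetaxel gave 0.74 ± 0.377 (adjusted p = 0.157). The remaining 10 tested genes, namely Col12a1, Col15a1, Col20a1, Col26a1, Col10a1, Col8a2, Col11a1, Col23a1, Col14a1 and Col4a4, passed no test in the main edgeR fit, and their means over 12 libraries were 4.31 CPM or less.

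**Figure D4:**
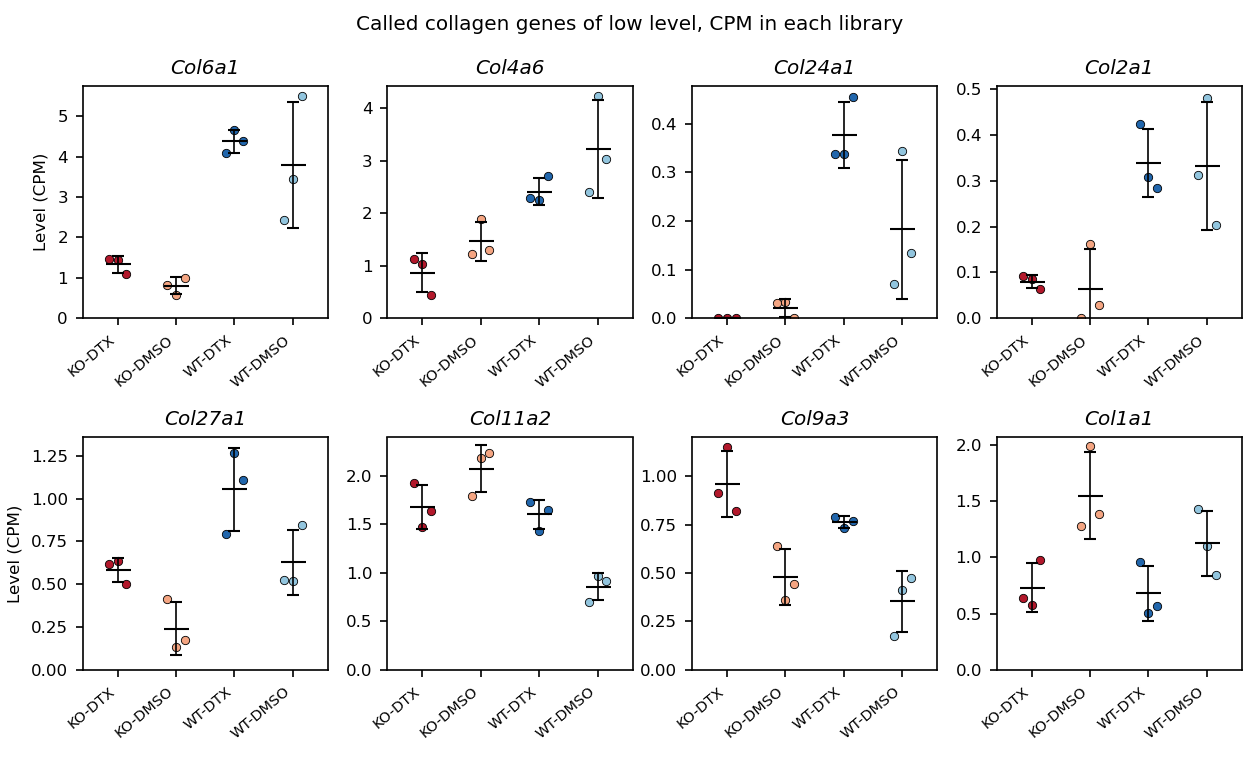
Levels in CPM in each library (points) of 8 low-level collagen genes that passed a test, by group, with the mean and SD of 3 libraries (bars); axes start at 0 and differ between genes. Col6a1, Col4a6, Col24a1 and Col2a1 are lower in knockout-labelled libraries, Col11a2 is low in WT-DMSO libraries alone, and Col1a1 and Col9a3 differ with docetaxel.

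With the genotypes, the fibroblast marker list also moved. Its summed level was 17.8 to 20.4 CPM in KO-DTX and 23.9 to 25.1 CPM in WT-DTX, and 15.2 to 19.0 CPM in KO-DMSO and 27.8 to 30.5 CPM in WT-DMSO libraries. Pdgfra held most of it, and between 1 and 3 of the 7 genes reached 1 CPM in a group. Dcn, Thy1 and Pdgfrb averaged at most 0.150 CPM in any group and Lum was at 0. Endothelial markers summed to at most 1.02 CPM, and T cell markers to 1.48 to 4.30 CPM. Of the epithelial markers, Krt19 was higher in knockout-labelled cells after docetaxel (0.97 ± 0.172 SE on the log2 scale, edgeR adjusted p = 0.00353) and under DMSO (0.81 ± 0.171, adjusted p = 0.00576). Of the fibroblast markers, Postn was higher in knockout-labelled cells under DMSO (1.70 ± 0.289, edgeR adjusted p = 0.00135), and Pdgfra was lower after docetaxel (−0.65 ± 0.108, adjusted p = 0.00241) and under DMSO (−0.92 ± 0.107, adjusted p = 5.95e-05). Their part in the genotype differences was not tested.

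No collagen gene passed the test of whether docetaxel acted differently in the genotypes. By edgeR 0 of 27 passed, where 0.109% of all tested genes did, and by DESeq2 0. At an unadjusted p under 0.05 there were 3, Col11a2, Col7a1 and Col8a1, where 11% of all tested genes were under it. A call in 1 genotype alone, such as those of Col1a1, Col4a5 and Col9a3, therefore does not show that the genotypes differ in it.

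As a whole, collagen transcripts summed to 1727 ± 172 CPM in KO-DTX and 2127 ± 68.8 CPM in KO-DMSO, and to 1864 ± 154 CPM in WT-DTX and 2377 ± 311 CPM in WT-DMSO libraries (SD, n = 3 each). Within the sum per kilobase, Col8a1 held 20.2 ± 3.18% in KO-DTX and 11.8 ± 0.316% in KO-DMSO, and 16.7 ± 1.01% in WT-DTX and 11.4 ± 2.02% in WT-DMSO libraries. Its share was higher in every docetaxel library than in every DMSO library of its genotype. The share of Col4a1 stayed at 35.1 to 38.3% in all 12 libraries. Shares of 1 sum move together, since a larger share of 1 gene lowers those of the others. The ratio of Col8a1 to Col18a1 per kilobase was 3.80 ± 1.09 in KO-DTX and 1.69 ± 0.0890 in KO-DMSO, and 2.35 ± 0.385 in WT-DTX and 1.09 ± 0.249 in WT-DMSO libraries.

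The genes that modify, fold, secrete and process collagen, and its receptors, formed 4 lists of 49 genes, of which 39 were tested. After docetaxel 3 of the 39 rose and 7 fell in knockout-labelled cells, where 9.09% of all tested genes rose and 7% fell. In wild-type cells 5 rose and 8 fell, where 14.5% of all tested genes rose and 13.8% fell. The same shares stand beside the counts of each list. The median log2 fold change of the 39 was −0.02 in knockout-labelled and −0.08 in wild-type cells, and over all tested genes it was 0.00 in knockout-labelled and 0.02 in wild-type cells. Among 15 hydroxylases and sugar transferases, 2 rose and 3 fell in knockout-labelled cells, and 2 rose and 4 fell in wild-type cells. P4ha1, the catalytic chain of prolyl 4-hydroxylase, was at 84.9, 105 and 105 CPM in KO-DTX, against 156, 199 and 191 CPM in KO-DMSO libraries. It was at 83.7, 119 and 88.5 CPM in WT-DTX, against 180.2, 197 and 187 CPM in WT-DMSO libraries. No docetaxel library reached a DMSO library. P4ha1 had a log2 fold change of −0.89 ± 0.135 SE in knockout-labelled cells (edgeR adjusted p = 0.000526) and −0.95 ± 0.135 in wild-type cells (adjusted p = 0.000253). Plod2, which hydroxylates the lysines of collagen end peptides, was at −0.56 ± 0.111 in knockout-labelled cells (adjusted p = 0.00395) and −0.64 ± 0.111 in wild-type cells (adjusted p = 0.00101). P3h2, a prolyl 3-hydroxylase of type IV collagen, went the other way, with 1.21 in knockout-labelled cells (adjusted p = 0.000433) and 1.99 in wild-type cells (adjusted p = 1.41e-05), at a mean of 4.92 CPM. The calls of P4ha1, Plod2 and P3h2 held under every alternative run. P4hb, the partner chain of P4ha1 and a disulphide isomerase, fell in wild-type cells (−0.36 ± 0.0875, adjusted p = 0.00805) and in knockout-labelled cells (−0.31 ± 0.0875, adjusted p = 0.0262), where the adjusted p was 0.0808 and 0.0723 without KO-DTX replicate 1 or 3 and 0.0957 and 0.0855 without KO-DMSO replicate 2 or 3. Plod1, a lysyl hydroxylase, fell in wild-type cells (−0.35 ± 0.115, adjusted p = 0.0325), a call lost without WT-DTX replicate 1 or 2 or WT-DMSO replicate 3 (0.144, 0.0507 and 0.131) and in a fit to only the groups compared (0.0712).

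Of 9 tested folding and secretion genes, 1 rose and 2 fell in each genotype. Of all tested genes, 9.09% rose and 7% fell in knockout-labelled cells, and 14.5% rose and 13.8% fell in wild-type cells. Sec13, a coat subunit of the COPII carrier, rose in knockout-labelled cells (0.41 ± 0.0993 SE, edgeR adjusted p = 0.0132) and in wild-type cells (0.76 ± 0.1, adjusted p = 0.000157). The first of these calls was lost without KO-DMSO replicate 2 or 3 (0.0733 and 0.0621). Sparc, a matrix protein that binds collagen, fell in knockout-labelled cells (−0.49 ± 0.141, adjusted p = 0.0308) and in wild-type cells (−0.77 ± 0.141, adjusted p = 0.00141). Its knockout-labelled call was lost without KO-DTX replicate 1 or 3 (0.122 and 0.0712) and without KO-DMSO replicate 2 or 3 (0.109 and 0.0980). Creb3l2, a transcription factor of secretory genes, fell in wild-type cells (−0.39 ± 0.105, adjusted p = 0.0125, or 0.0576 without WT-DMSO replicate 2). It was at −0.33 ± 0.106 in knockout-labelled cells (adjusted p = 0.0464), a call lost without any 1 of the 6 libraries (0.0610 to 0.138). That call was also lost with RLE scaling (0.0518), without a filter (0.0579) and with at least 1 CPM in 3 libraries (0.0527). The replicate block (0.0635) and the block with the GC correction (0.0507) ended it too.

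Of 8 tested processing and crosslinking genes, none rose and 2 fell in knockout-labelled cells, where 9.09% of all tested genes rose and 7% fell. In wild-type cells 1 rose and 1 fell, where 14.5% of all tested genes rose and 13.8% fell. Pcolce, which enhances removal of a procollagen end peptide, was at 18.0, 27 and 21.1 CPM in KO-DTX, against 49.5, 50.4 and 45.1 CPM in KO-DMSO libraries. It was at 22.4, 23.9 and 24.6 CPM in WT-DTX, against 40.5, 38.9 and 50.7 CPM in WT-DMSO libraries. All docetaxel libraries were lower than all DMSO libraries. For Pcolce this was a log2 fold change of −1.13 ± 0.137 SE in knockout-labelled cells (edgeR adjusted p = 7.74e-05) and −0.88 ± 0.136 in wild-type cells (adjusted p = 0.000473). Bmp1, the protease that Pcolce enhances, fell in knockout-labelled cells (−0.42 ± 0.0942, adjusted p = 0.00781) and was at −0.25 ± 0.0941 in wild-type cells (adjusted p = 0.0635). Pcolce2, a second enhancer, rose in wild-type cells (0.36 ± 0.104, adjusted p = 0.02), a call lost without WT-DTX replicate 1 or WT-DMSO replicate 2 or 3 (0.0781, 0.0705 and 0.0824). Of 7 tested receptors, the integrin chain Itga2 rose (0.29 ± 0.0947, adjusted p = 0.0354) and the kinase Ddr2 fell (−0.29 ± 0.0808, adjusted p = 0.0156) in wild-type cells, and none passed in knockout-labelled cells. Itga2 lost its call without WT-DTX replicate 1, 2 or 3 or WT-DMSO replicate 2 or 3 (0.0616 to 0.148), and Ddr2 without WT-DTX replicate 2 or 3 or WT-DMSO replicate 2 (0.0555 to 0.0663).

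Between the genotypes, after docetaxel 0 of the 39 pathway genes were higher and 9 lower in knockout-labelled cells, where 2.5% of all tested genes were higher and 3.39% lower. Under DMSO 4 were higher and 13 lower, where 6.6% of all tested genes were higher and 9.2% lower. The median log2 fold change was −0.12 after docetaxel and −0.08 under DMSO. Sec24d, a COPII subunit needed for procollagen export in zebrafish, was at 22.3, 24.9 and 24.8 CPM in KO-DTX, against 45.2, 45.3 and 45.3 CPM in WT-DTX libraries. It was at 20.2, 24.1 and 22.6 CPM in KO-DMSO, against 37.5, 54.6 and 51.8 CPM in WT-DMSO libraries. All knockout-labelled libraries were lower than all wild-type libraries. Sec24d had a log2 fold change of −0.91 ± 0.123 SE after docetaxel (edgeR adjusted p = 0.0004) and −1.10 ± 0.124 under DMSO (adjusted p = 4.41e-05). P3h1, a prolyl 3-hydroxylase, was at −1.02 ± 0.142 after docetaxel (adjusted p = 0.000531) and −0.75 ± 0.144 under DMSO (adjusted p = 0.00306). Adamts14, a protease of the procollagen amino end, was at −0.84 ± 0.128 after docetaxel (adjusted p = 0.00116) and −0.65 ± 0.129 under DMSO (adjusted p = 0.00383). Creb3l2 was at −0.58 ± 0.106 after docetaxel (adjusted p = 0.00444) and −0.64 ± 0.105 under DMSO (adjusted p = 0.00102). Colgalt1, which adds galactose to hydroxylysine, was at −0.43 ± 0.0747 after docetaxel (adjusted p = 0.00309) and −0.42 ± 0.0748 under DMSO (adjusted p = 0.00189). The calls of these 5 genes held under every alternative run, as did those of Sparc (−0.85 ± 0.141, adjusted p = 0.00106) and P4hb (−0.40 ± 0.0875, adjusted p = 0.00743) under DMSO. After docetaxel Sparc was at −0.57 ± 0.141 (adjusted p = 0.027), P4hb at −0.35 ± 0.0875 (adjusted p = 0.0279) and Bmp1 at −0.46 ± 0.0943 (adjusted p = 0.00856). The Bmp1 call was lost without WT-DTX replicate 2 (0.0501), the Sparc call without WT-DTX replicate 2 or 3 or KO-DTX replicate 1 or 3 (0.0808 to 0.140), and the P4hb call without WT-DTX replicate 2 or 3 or any KO-DTX replicate (0.0601 to 0.133).

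The 4 higher genes under DMSO were P3h2, P4ha2, Pcolce2 and Itga1. P3h2 averaged 3.37 ± 0.692 CPM in KO-DMSO and 1.72 ± 0.391 in WT-DMSO libraries (0.97 ± 0.198 SE on the log2 scale, edgeR adjusted p = 0.00457), and the call held under every alternative run. P4ha2, a catalytic chain like P4ha1, averaged 36.9 ± 5.37 CPM in KO-DMSO and 26.3 ± 3.38 in WT-DMSO libraries (0.49 ± 0.155, adjusted p = 0.0462). Pcolce2 averaged 57.9 ± 4.01 CPM in KO-DMSO and 43.1 ± 6.03 in WT-DMSO libraries (0.43 ± 0.105, adjusted p = 0.0136). Itga1, a collagen-binding integrin chain, averaged 21.9 ± 1.65 CPM in KO-DMSO and 13.3 ± 2.64 in WT-DMSO libraries (0.72 ± 0.196, adjusted p = 0.0232). All 3 of P4ha2, Pcolce2 and Itga1 lost their calls without WT-DMSO replicate 2 (0.166, 0.0599 and 0.0748). The P4ha2 call was also lost without WT-DMSO replicate 1 or KO-DMSO replicate 2 or 3 (0.0690 to 0.158), the Pcolce2 call without WT-DMSO replicate 3 or KO-DMSO replicate 1 (0.0577 and 0.0750), and the Itga1 call without WT-DMSO replicate 3 or KO-DMSO replicate 1 or 3 (0.0808 to 0.0869).

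Among the 13 lower genes under DMSO were also Plod1, Loxl4 and Sec23a. Plod1 averaged 23.9 ± 0.862 CPM in KO-DMSO and 33.0 ± 3.69 in WT-DMSO libraries (−0.47 ± 0.115 SE, edgeR adjusted p = 0.014). Loxl4, a lysyl oxidase-like crosslinking enzyme, averaged 74.6 ± 1.36 CPM in KO-DMSO and 100 ± 11.2 in WT-DMSO libraries (−0.43 ± 0.108, adjusted p = 0.0156). Both lost their calls without WT-DMSO replicate 3 or KO-DMSO replicate 1 or 3, with adjusted p of 0.0534 to 0.0587 for Plod1 and 0.0521 to 0.0622 for Loxl4. Sec23a, a COPII coat subunit, averaged 64.3 ± 3.74 CPM in KO-DMSO and 80.6 ± 7.99 in WT-DMSO libraries (−0.33 ± 0.1, adjusted p = 0.0409). Its call was lost without WT-DMSO replicate 2 or 3 or any KO-DMSO replicate (0.0756 to 0.170), with the replicate block (0.0582) and in a fit to only the groups compared (0.0538). None of the 39 passed the test of a differing docetaxel effect by edgeR, where 0.109% of all tested genes did. At an unadjusted p under 0.05 there were 3, where 11% of all tested genes were under it.

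**Figure D5:**
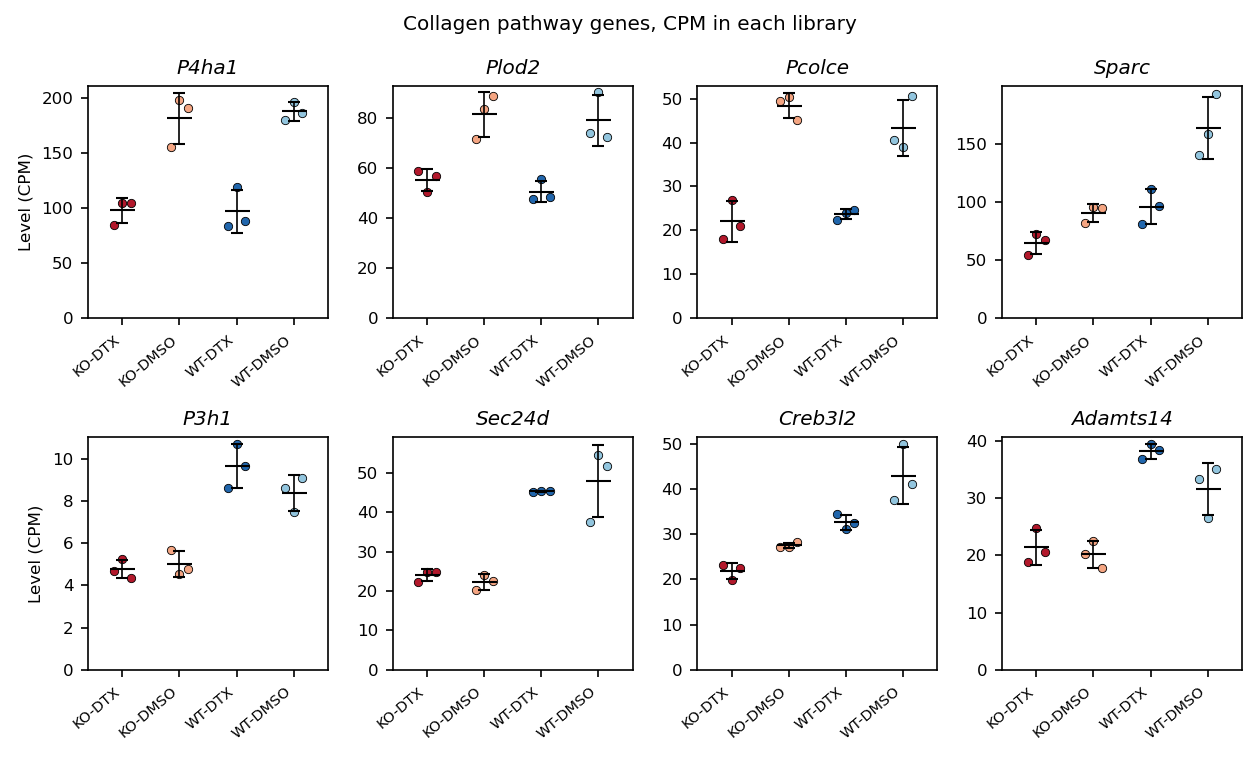
Levels in CPM in each library (points) of 8 collagen pathway genes, by group, with the mean and SD of 3 libraries (bars); axes start at 0 and differ between genes. P4ha1, Plod2 and Pcolce are lower in docetaxel libraries of both genotypes, P3h1, Sec24d and Adamts14 are lower in knockout-labelled libraries under both treatments, and Sparc and Creb3l2 are lower with each.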

How the data were processed

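RNA was extracted with a column kit, depleted of ribosomal RNA, reverse transcribed with random hexamers and sequenced in pairs, per the labels' protocols. The authors deposited raw counts, 1 row a gene symbol, made with STAR 2.5.1a and featureCounts 1.4.6-p5 per the submitters' processing notes. Their build, annotation and strand setting were not given in the sources used here. Of 40757 entries, 351 repeated another in symbol and every count (0.907% of counts) and were removed. Symbols were matched to GENCODE M21 (GRCm38) for exon length, GC content and position, which gave a GC content for 15532 of the tested genes and all 27 collagen genes among them.

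Genes were filtered with filterByExpr, scaled by TMM and fitted with edgeR 4.0.16 in R 4.3.3, with 1 mean per group over all 12 libraries, whose common biological coefficient of variation was 13.2%. Contrasts were two-sided quasi-likelihood tests, adjusted by Benjamini-Hochberg over 15538 genes and called at 0.05. SEs were derived from each log2 fold change and its F statistic. CPM uses TMM-scaled library sizes, and intervals and floors on counts cover counting error only. Chi-square per degree of freedom between libraries of a group was 8.46 to 172, so none repeated another.

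The members, gene lists and tests were chosen with earlier results of these data known. By rule, values in every library are given for collagen genes called in a contrast with 1 CPM in the highest group mean and for the 6 highest per kilobase. From each pathway list up to 4 called genes of at least 5 CPM per contrast are named, with their fits. Col9a3, Col24a1, Col2a1 and P3h2 lie below these limits and were named after their values were seen. Alternatives were DESeq2 1.42.0, RLE scaling, other filters, fits to only the groups compared, a block for the replicate number, a lowess GC correction and leaving out libraries. The edgeR script was tested on simulated data. Figures used matplotlib 3.10.9 in Python 3.11.15.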

Additional observations from a re-analysis of the deposited data

How the results depend on the processing

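Of 22 collagen values that passed a test, 11 kept their call under every alternative run and 11 lost it under at least 1, and none reversed. The 11 that kept it were Col16a1 (docetaxel in both genotypes), Col7a1 and Col8a1 (docetaxel in knockout-labelled cells), Col18a1 and Col11a2 (docetaxel in wild-type cells, and genotype under DMSO), Col6a1 (both genotype contrasts) and Col24a1 (genotype after docetaxel). Col24a1 was present in 14 alternatives, against 15 for Col6a1. Col24a1, and Col2a1 among those that lost a call, passed the filter only through wild-type libraries and had to differ, so they lend no weight to these counts. The number of collagen genes called for the genotypes under DMSO was 3 without WT-DMSO replicate 2 and KO-DTX replicate 3, each the richest of its group in Gm23935, against 7. For the genotypes after docetaxel it was 5 without a filter on low counts, 5 with the GC correction and 5 with the replicate block and the GC correction, against 3. For the interaction it was 1 without a filter, Col7a1, against 0. For the interaction, leaving out WT-DMSO replicate 1 also gave Col7a1. Leaving out 1 library at a time gave 3 to 6 calls for docetaxel in knockout-labelled cells, 3 to 6 in wild-type cells, 4 to 8 for the genotypes under DMSO, 2 to 4 after docetaxel and 0 to 1 for the interaction. The low of 3 came without KO-DTX replicate 1 or KO-DMSO replicate 2, and without WT-DTX replicate 1 or 3, and the low of 4 without WT-DMSO replicate 2 or KO-DMSO replicate 3. Not every call gained under an alternative is given with its gene, so a gene said to pass no test may have passed in 1. The cause of these changes was not tested.

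Of 51 called values of pathway genes and Itgb3, whose alternatives were chosen after seeing the data, 22 lost their call under at least 1 and none reversed. Over all genes the interaction had 17 calls, against 165 with DESeq2, 421 without a filter, 48 with the block, 40 with the GC correction, 105 with both, and 2 to 431 with 1 library left out, the 431 being without WT-DMSO replicate 1. All genes called for the genotypes under DMSO were 1267 without this pair, against 2454, and after docetaxel 565 without the pair and 1478 with block and GC correction, against 915. With 1 library left out, all genes called for docetaxel were 1311 to 2739 in knockout-labelled cells, against 2499, and 3035 to 4771 in wild-type cells, against 4406. They were 1264 to 3273 for the genotypes under DMSO, and 467 to 729 after docetaxel.

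With replicate number as a replicate block, 5 collagen genes were called for docetaxel in knockout-labelled cells, 5 in wild-type cells, 7 for the genotypes under DMSO, 4 after docetaxel and 0 for the interaction. All genes called with the block numbered 2700, 4510, 2534, 943 and 48 in that order. Without it they numbered 2499, 4406, 2454, 915 and 17. The labels do not say that a number marks a shared culture day, and correlations of same-numbered libraries ran from −0.399 to 0.677, so the numbers were not taken to pair the libraries. In wild-type cells 0 of 3 libraries correlated best with their own number, and 2 of 3 did in each of the other contrasts.

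Genes under 1 CPM rest on few reads, as do 11 of the 27 tested. Tested collagen exons had a median GC content of 56.7%, against 49.8% for all tested genes, and Col4a1 and Col4a2 share 22 bases. Strand setting is unknown, so reads of overlapping genes cannot be told apart.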
